A study of Mus musculus with 24 samples.

Results

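RNA sequencing of the CD45+ cells of the mouse ileum gave 12 libraries that differed widely in how much of their RNA came from immunoglobulin genes. These 12, of the 24 libraries in the series, were ranked by their immunoglobulin share, the summed counts of all heavy, kappa and lambda chain genes as a percentage of the library's counts. The 4 libraries with the highest share and the 4 with the lowest were then compared across all other genes, after the 390 immunoglobulin genes had been removed. The 2 sets were chosen by a measured value, so the difference between them is given as a description, without a p-value. Immunoglobulin transcripts made up 33.6% to 44.0% of the counts in the highest set, 17.7% to 21.5% in the 4 middle libraries and 12.1% to 16.7% in the lowest set. Of 17 genes of plasma cell identity, 12 were higher in the highest set without overlap, as were 10 of 22 genes of protein folding and export. Lists of T cell, B cell and innate lymphoid cell genes had negative medians, and their genes other than Icos overlapped between the sets.

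Plasma cells are the antibody-secreting end stage of the B cell lineage, and the lamina propria of the small intestine holds large numbers of them. Most intestinal plasma cells secrete dimeric IgA, in which the J chain (Jchain) links antibody monomers for transport across the epithelium by the polymeric immunoglobulin receptor. A plasma cell devotes a large part of its mRNA to its own rearranged heavy and light chain, and it carries an expanded endoplasmic reticulum (ER) in which antibody chains are folded, paired and checked. Each clone uses 1 heavy and 1 light chain variable (V) gene, so V gene counts in a bulk library sum over the clones that were sampled.

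The mice were C57BL/6, 9.0 to 9.9 weeks old, and carried loxP-flanked Il4ra alleles in all groups. Wild-type groups were named Hoil1+/+Il4raflox/flox without Cre or, where Cre was present, Hoil1+/+Il4raflox/flox+Vil1cre, while mutant groups were named Hoil1-/-Il4raflox/flox without Cre or, where Cre was present, Hoil1-/-Il4raflox/flox+Vil1cre, with 3 CD45+ libraries each, whose replicate numbers follow the order of deposit and only name them. Hoil1 (gene symbol Rbck1) encodes a subunit of the linear ubiquitin chain assembly complex, and Vil1cre expresses Cre under the villin promoter, which is active in the intestinal epithelium, so the CD45+ cells themselves were not its target. Peyer's patches had been removed, and the sorted cells came from the lamina propria combined with a portion of the epithelial fraction, which contains intraepithelial lymphocytes.

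The libraries held 14938629 to 76807504 counts, so counting error was small beside the differences in share. Rbck1 was 6.28 to 18.8 CPM in the 6 Hoil1-/- libraries and 108 to 185 CPM in the 6 Hoil1+/+ libraries, in accordance with the labels. CPM are counts per 1000000 counts of a library, scaled throughout by the trimmed mean of M values (TMM) after removal of immunoglobulin genes, unless said otherwise. Ptprc, which encodes CD45, was 298 to 899 CPM over the 8 compared libraries, and T cell (Cd3e), macrophage (Csf1r) and B cell (Ms4a1) markers were present. The study's own list of 10 CD45+ libraries lacks 1 library of the lowest set (Hoil1-/-Il4raflox/flox replicate 1) and 1 of the highest set (Hoil1-/-Il4raflox/flox+Vil1cre replicate 3), and both are kept here. The study's methods report that outliers found by principal component analysis were left out, without naming them there.

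A difference between the sets other than immunoglobulin has to be stated before any other result. Xist, the noncoding RNA that coats the inactive X chromosome in female cells, was 193 to 326 CPM in the 4 lowest libraries and had no counts in the 4 highest. The Y-linked genes Ddx3y, Eif2s3y, Kdm5d and Uty summed to 89.0 to 130 CPM in the 4 highest libraries and to 0 to 3.35 CPM in the 4 lowest. The sex of the mice is not in the labels used here, and within these 8 libraries it cannot be told apart from the immunoglobulin share. Among the middle libraries, Hoil1-/-Il4raflox/flox replicate 2 had Xist at 277 CPM, and the other 3 had summed Y-linked counts of 125 to 158 CPM at shares of 17.7% to 21.5%. These 3 libraries allow the highest set to be compared with lower-share libraries that also carry Y-linked counts. Values of that comparison are given for all genes and for the plasma cell and ER lists. Of the other lists only the medians that changed sign are given, and most other single genes are not covered.

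**Figure D1:**
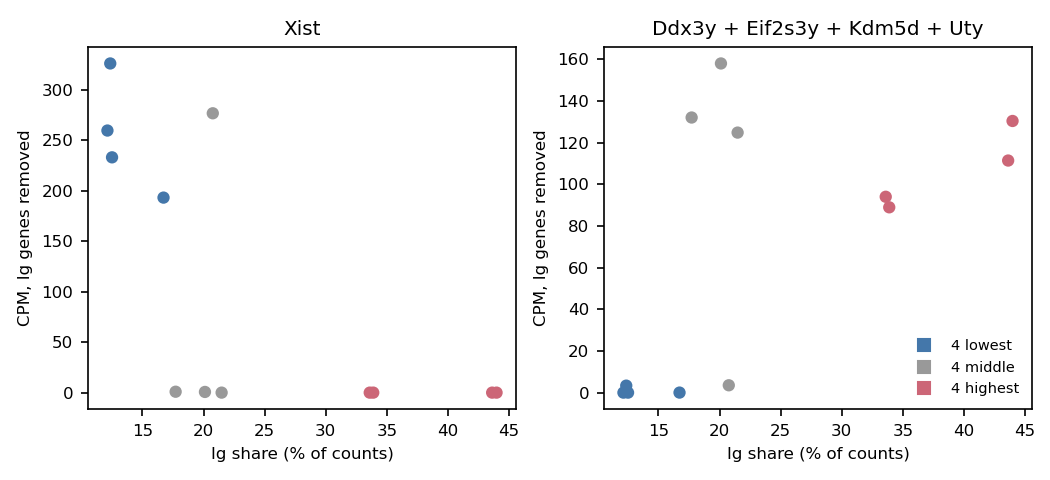
Xist (left) and the sum of 4 Y-linked genes (right) in CPM with immunoglobulin (Ig) genes removed, on the y axes, against the immunoglobulin share in percent of counts, 1 point for each of the 12 CD45+ libraries, coloured by set. All 4 lowest-share libraries and 1 middle library carry Xist, and all 4 highest-share libraries carry Y-linked counts.

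In order of share, the lowest set comprised Hoil1+/+Il4raflox/flox+Vil1cre replicate 2 at 12.1%, Hoil1-/-Il4raflox/flox+Vil1cre replicate 2 at 12.4%, Hoil1-/-Il4raflox/flox replicate 1 at 12.5% and Hoil1+/+Il4raflox/flox+Vil1cre replicate 1 at 16.7%. The highest set comprised Hoil1-/-Il4raflox/flox+Vil1cre replicate 3 at 33.6%, Hoil1+/+Il4raflox/flox replicate 1 at 33.9%, Hoil1+/+Il4raflox/flox replicate 3 at 43.6% and Hoil1-/-Il4raflox/flox replicate 3 at 44.0%. A gap of 12.1 percentage points separated the lowest of the highest set from the next library, at 21.5%. The lower boundary was far less distinct, since 16.7% and 17.7% stood on either side of it. Igha and Igkc were both higher in every library of the highest set than in any other library, as the plot of immunoglobulin transcripts by library shows. Both genes are parts of the share by which the libraries were ranked. Expressed against the rest of the library, there were 13.8 to 20.1 immunoglobulin counts per 100 other counts in the lowest set and 50.6 to 78.5 in the highest.

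**Figure D2:**
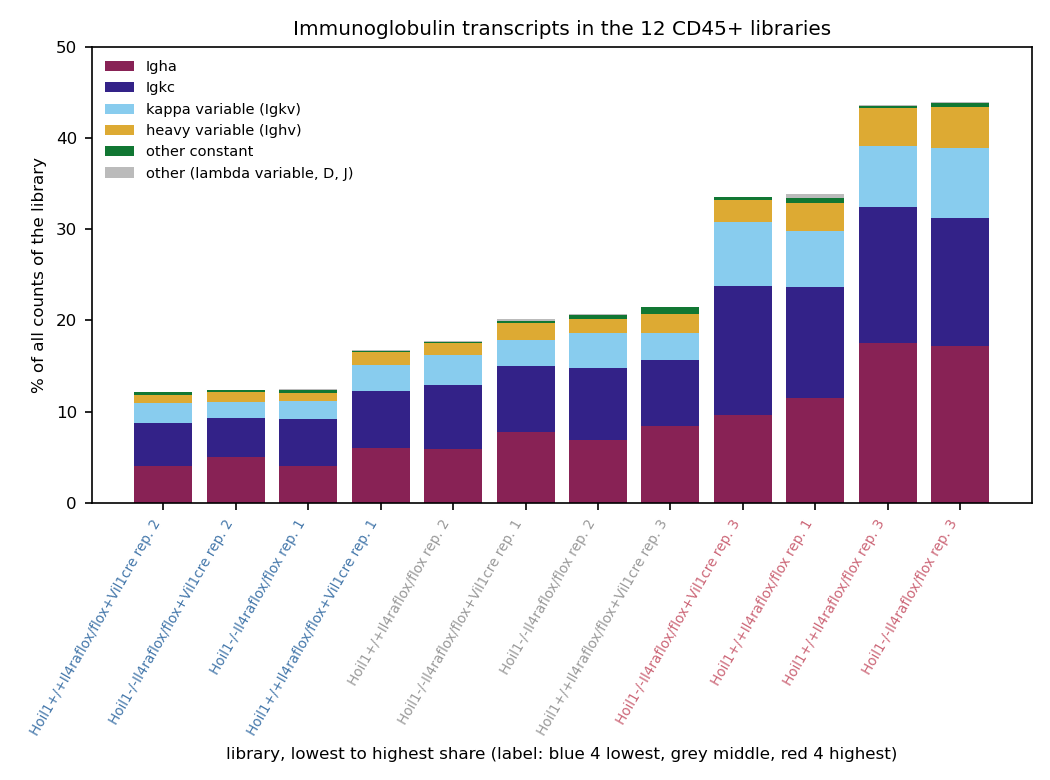
Immunoglobulin counts as a percentage of all counts (y axis) in each CD45+ library (x axis, ordered by share), stacked by gene class. The bars reach 12.1% to 16.7% in the 4 lowest libraries and 33.6% to 44.0% in the 4 highest, and Igha and Igkc fill most of every bar.

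The ranking crossed the genotypes. Each set held 2 Hoil1-/- and 2 Hoil1+/+ libraries, and 3 of the 4 lowest but 1 of the 4 highest carried Vil1cre. Vil1cre was thus unevenly divided between the sets, and its part in the gene differences between them was not tested. The mean share was 23.9% ± 12.5 in Hoil1-/- and 24.3% ± 12.01 in Hoil1+/+ libraries (SD, n = 6 each), a difference of -0.372 percentage points (two-sided exact permutation test, p = 0.942, adjusted p = 0.942 over 2 contrasts). With Vil1cre the mean share was 19.4% ± 7.95 and without it 28.7% ± 13.6 (SD, n = 6 each), a difference of -9.34 points (two-sided exact permutation test, p = 0.162, adjusted p = 0.325). The smallest p this design allows is 0.00216. Neither difference passed the test. The share ran from 17.7% to 43.6% in Hoil1+/+Il4raflox/flox, from 12.1% to 21.5% in Hoil1+/+Il4raflox/flox+Vil1cre, from 12.5% to 44.0% in Hoil1-/-Il4raflox/flox and from 12.4% to 33.6% in Hoil1-/-Il4raflox/flox+Vil1cre. In the 10 libraries of the study's list the difference by Vil1cre was -15.4 points (two-sided exact permutation test, p = 0.0397, adjusted p = 0.0794). The study describes each plotted sample as coming from 1 mouse. Xist was at 193 CPM or more in 3 of 6 libraries with Vil1cre and 2 of 6 without it, and in 3 of 6 Hoil1-/- and 2 of 6 Hoil1+/+ libraries.

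Igha, the constant region of IgA, and Igkc, the constant region of the kappa light chain, together accounted for 69.9% to 75.4% of the immunoglobulin counts in every library. Igha ranged from 4.03% to 6.04% of all counts in the lowest set, from 5.91% to 8.39% in the middle and from 9.64% to 17.5% in the highest. Igkc ranged from 4.35% to 6.18%, from 6.99% to 7.90% and from 12.2% to 15.0% in the same order. IgA made up 93.4% to 99.7% of the heavy chain constant counts of all 12 libraries. IgA was thus the main class in every library, at high and at low share.

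Most of the small remainder overlapped between the sets. Ighm, the constant region of IgM, which marks naive B cells and early plasma cells, was 0.794% to 2.82% of heavy chain constant counts in the lowest set and 0.114% to 0.690% in the highest, without overlap. Its level as a percentage of all counts overlapped, at 0.0488% to 0.119% and 0.0199% to 0.0676%. Heavy chain constant counts are mostly Igha, which is part of the ranking, so the Ighm fraction falls as Igha rises. Ighd, the constant region of IgD, which is found on naive B cells, reached at most 0.0190% of all counts in the lowest set and 0.00329% in the highest. The IgG classes together were 0.115% to 1.08% of heavy chain constant counts in the lowest set and 0.146% to 0.786% in the highest, and Ighg2b was the most abundant of them on average. Ighe, the constant region of IgE, had no counts in the lowest set. Lambda chains were 0.691% to 4.27% of light chain constant counts in the lowest set and 0.862% to 4.02% in the highest, although Iglc1 alone was higher in the highest set without overlap, at 0.0654% to 0.444% against 0.0140% to 0.0594% of all counts. Iglc1 is itself part of the share that ranked the libraries.

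The kappa V gene with the most counts took 7.96% to 25.1% of the kappa V counts of a library. V gene counts are part of the share that ranked the libraries, so higher levels in the highest set follow largely from the ranking. Of 346 V genes, 38 had a share that was higher in the 4 highest libraries without overlap and 1 had a lower one. Of the 40 V genes with a mean share of at least 0.05%, 39 had a higher mean in the highest set but only 13 did so without overlap. Over the 12 libraries, 9 different kappa V genes and 9 different heavy chain V genes came first. The 5 V genes with the highest mean share were all kappa genes of chromosome 6. Igkv10-96 (chr6:68631963-68632442) ranged from 0.0560% to 0.484% of all counts, Igkv1-110 (chr6:68270485-68271267) from 0.0516% to 0.502% and Igkv6-15 (chr6:70406469-70406992) from 0.0550% to 0.406%. Igkv5-48 (chr6:69726573-69727138) ranged from 0.0397% to 0.990% and Igkv8-27 (chr6:70171809-70172270) from 0.0522% to 0.406%.

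Single libraries stood out by a single V gene, and these genes were chosen after their values were seen. Hoil1+/+Il4raflox/flox+Vil1cre replicate 2, which had the lowest share of all, took 25.1% of its kappa V counts from Igkv12-46 and 26.1% of its heavy chain V counts from Ighv10-1. Igkv12-46 was 0.546% of all counts there and at most 0.124% in any other library. Igkv5-48 was 0.990% in Hoil1+/+Il4raflox/flox replicate 3 and at most 0.150% elsewhere. Igkv8-21 was 0.811% in Hoil1-/-Il4raflox/flox replicate 3, 0.460% in Hoil1-/-Il4raflox/flox+Vil1cre replicate 1 and 0.00777% in Hoil1+/+Il4raflox/flox replicate 3. Igkv8-30 was 0.362% in Hoil1+/+Il4raflox/flox replicate 2 and at most 0.114% elsewhere. Such peaks occurred in libraries of the lowest, middle and highest sets. The effective number of V genes, the inverse of the summed squared shares, was 11.2 to 22.4 in the lowest set and 20.4 to 28.0 in the highest for heavy chains, and 11.8 to 21.9 and 17.6 to 29.9 for kappa chains.

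**Figure D3:**
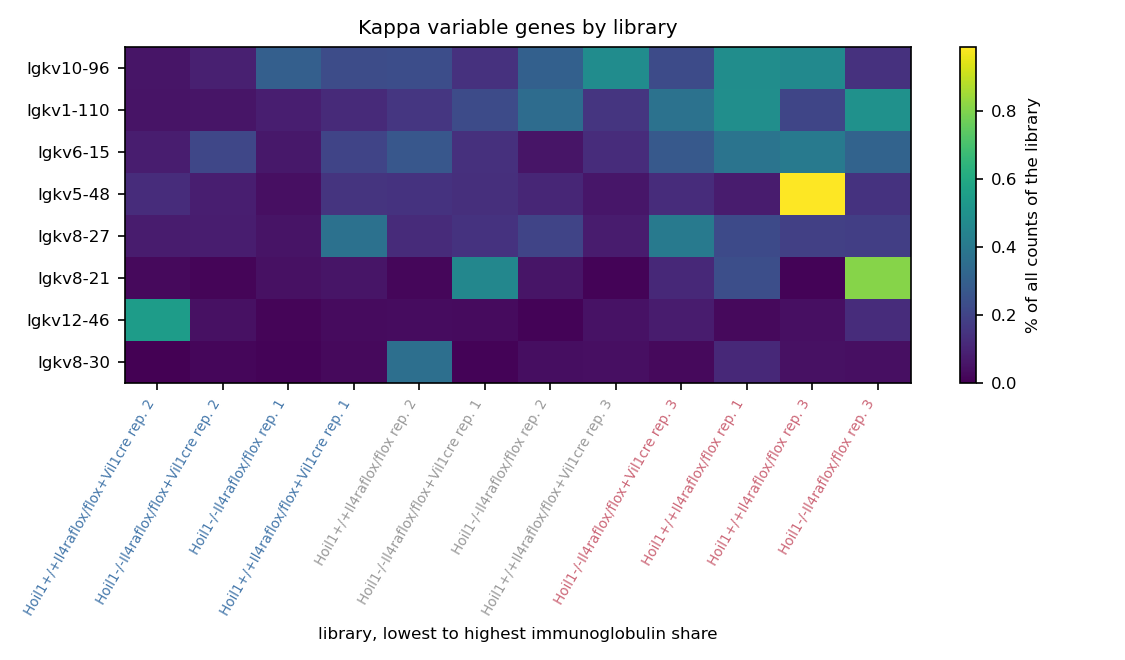
Share of all counts in percent (colour) of 8 kappa V genes (rows) in the 12 CD45+ libraries (columns, ordered by immunoglobulin share). Igkv5-48 at 0.990% and Igkv12-46 at 0.546% each peak in 1 library and Igkv8-21 is at 0.811% and 0.460% in a pair of them, while Igkv10-96, Igkv1-110 and Igkv6-15 are spread over many.

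The germline sequences show how alike neighbouring V genes are, which bears on how reads were assigned to them. A stretch of 150 bases of the V exon of Igkv8-21 (chr6:70314897-70315046), Igkv8-27 (chr6:70171809-70171958) and Igkv8-30 (chr6:70117066-70117215), all on the minus strand of GRCm38 and taken from GENCODE M21, is aligned without gaps, with capitals at the 21 positions where the 3 genes are not all the same.
Igkv8-21: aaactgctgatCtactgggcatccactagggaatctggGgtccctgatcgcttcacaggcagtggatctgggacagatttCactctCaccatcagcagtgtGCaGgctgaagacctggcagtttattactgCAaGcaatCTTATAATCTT
Igkv8-27: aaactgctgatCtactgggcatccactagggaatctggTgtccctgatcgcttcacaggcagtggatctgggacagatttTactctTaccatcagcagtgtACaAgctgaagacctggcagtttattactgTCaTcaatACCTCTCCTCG
Igkv8-30: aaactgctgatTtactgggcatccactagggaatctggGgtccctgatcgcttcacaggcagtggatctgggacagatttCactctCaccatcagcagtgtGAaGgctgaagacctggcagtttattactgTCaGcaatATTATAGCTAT
Igkv8-21 and Igkv8-30 differed at 9 of these 150 positions, Igkv8-27 and Igkv8-30 at 16 and Igkv8-21 and Igkv8-27 at 19. The closest relative of a named gene was closer still in some cases, with 96.8% identity over the V exon between Igkv1-110 and Igkv1-117 and 95.0% between Igkv12-46 and Igkv12-41. Somatic mutation changes these sequences further, and the options of the counting are not given in the sources used here, so counts of single V genes are uncertain where relatives are this close. How reads were divided among V genes does not move the summed share, whereas any reads left uncounted for matching several genes would lower it.

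Across the 13037 other genes with a mean of at least 1 CPM, 220 genes (1.69%) were at least 2-fold higher in the highest set with no overlap between the 4 and the 4 libraries, and 128 (0.982%) were at least 2-fold lower without overlap. Without the fold limit, 529 genes (4.06%) were higher and 275 (2.11%) were lower without overlap. The median log2 fold change of all genes was -0.06. Of the 220 higher genes 4 lie on the Y chromosome and 5 on the X, and of the 128 lower genes 8 lie on the X. With the 4 highest libraries set against the 3 other libraries with Y-linked counts, 149 genes (1.14%) were at least 2-fold higher and 289 were at least 2-fold lower without overlap, and 5.81% were higher without overlap at any fold. Leaving out 1 library gave between 255 and 373 higher and between 143 and 621 lower genes, all above the main counts. With fewer libraries in a set, the condition of no overlap is easier to meet. Why the counts differed by the library left out was not tested.

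Plasma cell identity genes were higher in the highest set. Of 17 listed genes, all passed the filter, 11 were at least 2-fold higher without overlap against a background of 1.69%, 12 were higher without overlap against a background of 4.06%, and none was lower without overlap. Their median log2 fold change was 1.50, beside -0.06 for all genes. The summed level of the list was 12117 to 19872 CPM in the lowest set, 21593 to 30410 CPM in the middle and 45253 to 65295 CPM in the highest, mostly from Jchain. For all 17 genes the mean of the middle libraries lay between the means of the 2 sets. In a bulk library, a smaller fraction of plasma cells and less of these RNAs per plasma cell cannot be told apart.

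Jchain, the joining chain of dimeric IgA, was at 9608, 13510, 16817 and 17475 CPM in the lowest libraries and at 38011, 45591, 51388 and 55005 CPM in the highest, a 3.31-fold difference (log2 1.73, SE 0.23). On this scale, without immunoglobulin genes, every library of the highest set was more than 2-fold above every library of the lowest set. As a share of all counts, Jchain was 0.882% to 1.50% in the lowest, 1.41% to 2.30% in the middle and 2.20% to 3.02% in the highest libraries. There the lowest and highest sets did not overlap, with a ratio of means of 2.13, but the middle libraries reached into the highest set. Txndc5, a protein disulfide isomerase abundant in plasma cells, was at 507, 536, 613 and 827 CPM in the lowest and 2586, 2705, 2830 and 3745 CPM in the highest libraries, a 4.78-fold difference (log2 2.26, SE 0.23). It had the largest fold change of the list. Sdc1, which encodes the plasma cell surface proteoglycan CD138, was at 126, 133, 144 and 208 CPM against 590, 592, 728 and 759 CPM (4.36-fold, log2 2.12, SE 0.22). Xbp1, the transcription factor that drives the secretory program, was at 445, 459, 485 and 589 CPM against 1319, 1502, 1516 and 2238 CPM (3.32-fold, log2 1.73, SE 0.22). In each of these 4 genes the middle libraries lay below the whole highest set in CPM without immunoglobulin genes, with Jchain, for example, at 17724 to 27032 CPM and Txndc5 at 683 to 1201 CPM.

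**Figure D4:**
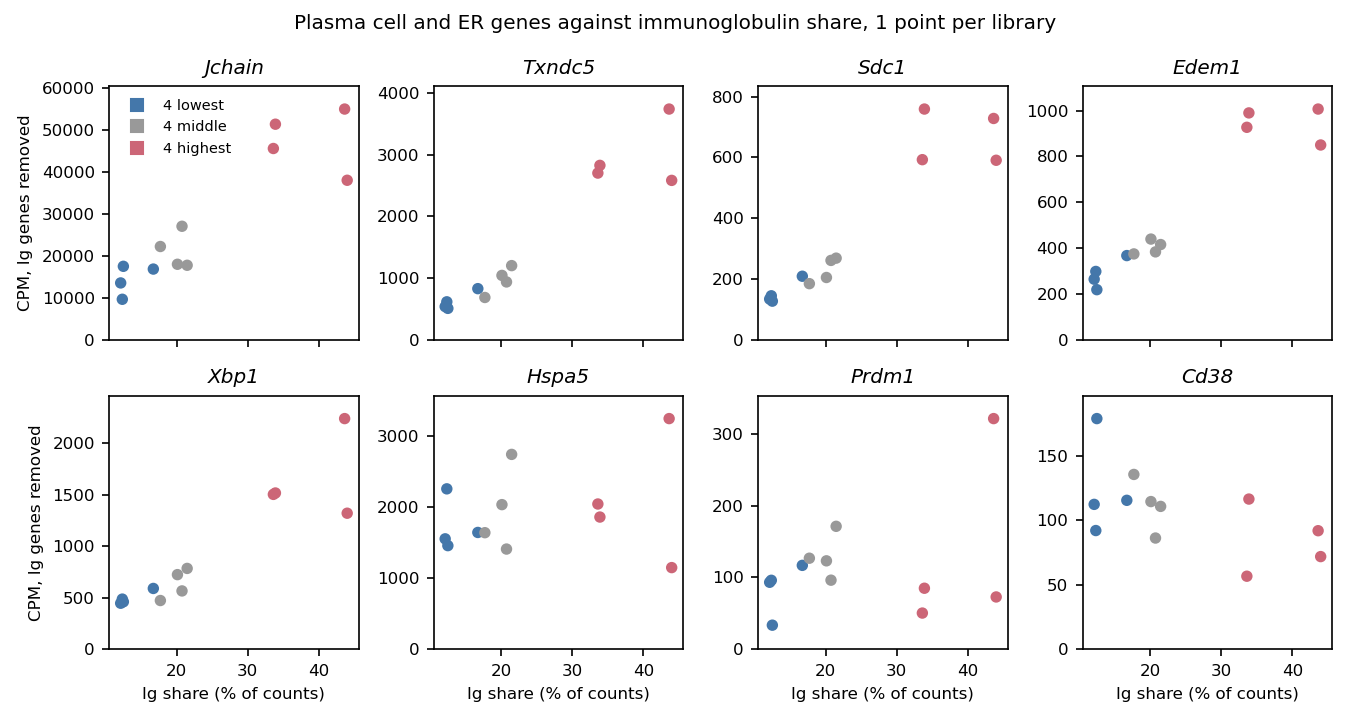
CPM with immunoglobulin (Ig) genes removed (y axes, from 0) of 8 genes against the immunoglobulin share in percent of counts (x axes), 1 point per CD45+ library, coloured by set. Jchain, Txndc5, Sdc1, Edem1 and Xbp1 are highest in the 4 highest-share libraries, whereas Hspa5, Prdm1 and Cd38 overlap between the sets.

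Tnfrsf17, the receptor BCMA, which supports plasma cell survival, was 16.2 to 31.2 CPM in the lowest and 68.4 to 109 CPM in the highest set (log2 1.93, SE 0.28). Derl3, a component of ER-associated degradation, was 48.7 to 90.2 and 181 to 248 CPM (log2 1.87, SE 0.26). Mzb1, an ER cochaperone of antibody assembly, was 154 to 260 and 589 to 757 CPM (log2 1.72, SE 0.22). These 3 genes were well separated between the sets. Ell2, an elongation factor that favours secretory heavy chain mRNA, had a log2 fold change of 1.63 (SE 0.23), Creld2 of 1.50 (SE 0.30), the B lineage coactivator Pou2af1 of 1.38 (SE 0.22) and Tent5c, a poly(A) polymerase, of 1.32 (SE 0.34), all without overlap. Slamf7 did not overlap but stayed under 2-fold (log2 0.97, SE 0.21).

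The transcription factors that direct plasma cell differentiation did not separate the sets as these genes did. Prdm1, which encodes BLIMP1, was 33.4 to 117 CPM in the lowest and 50.3 to 322 CPM in the highest libraries (log2 0.64, SE 0.59), with the top value in Hoil1+/+Il4raflox/flox replicate 3 alone. Without that library its log2 fold change was -0.29. Irf4 was 71.8 to 186 and 145 to 322 CPM (log2 0.57, SE 0.35). Both genes are also expressed by other leukocytes. Eaf2 (log2 1.46, SE 0.43) and Fkbp11 (log2 0.98, SE 0.44) overlapped between the sets, and Cd38, which many leukocytes carry, had a log2 fold change of -0.57 (SE 0.29) with overlapping values.

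Set against the 3 other libraries with Y-linked counts, the highest libraries were higher without overlap in 12 of the 17 plasma cell genes against 5.81% of all genes, 10 of them at least 2-fold against 1.14%, with a median log2 fold change of 1.11. Txndc5 had a log2 fold change of 1.60, Sdc1 of 1.61, Tnfrsf17 of 1.66 and Jchain of 1.30 in that comparison. These genes therefore also separated libraries that all carried Y-linked counts. For these 4 genes the fold changes were smaller than against the lowest set, and the reference libraries had shares of 17.7% to 21.5%.

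Genes for folding and export of secreted proteins divided into those that separated the sets and those that did not. All 22 listed genes had a positive log2 fold change, with a median of 0.95, and 9 of the 22 were at least 2-fold higher without overlap against the background of 1.69%. The 3 most abundant members behaved differently. Hspa5, the ER chaperone BiP, which binds unpaired heavy chains, was 1456 to 2255 CPM in the lowest and 1147 to 3244 CPM in the highest set (log2 0.26, SE 0.30), and Calr was 1169 to 1620 and 1374 to 2477 CPM (log2 0.50, SE 0.22). Hsp90b1, the chaperone GRP94, was 492 to 852 and 1274 to 1866 CPM (log2 1.12, SE 0.22) without overlap. The following genes were chosen after their values were seen. Edem2 (log2 1.82, SE 0.21), Edem1 (log2 1.72, SE 0.21) and Sel1l (log2 1.46, SE 0.22), which act in the removal of misfolded glycoproteins, had the largest fold changes of this list. Edem1 was at 218, 264, 297 and 367 CPM in the lowest and at 850, 927, 990 and 1007 CPM in the highest libraries. Pdia4, Pdia6, Ssr4, Spcs2 and Sec11c, which serve disulfide formation, translocation and signal peptide cleavage, had log2 fold changes of 1.06 to 1.23 without overlap. Dnajb9 (log2 0.17, SE 0.20), Canx (log2 0.33, SE 0.21) and Ero1lb (log2 0.35, SE 0.25) overlapped. Compared with the 3 other libraries with Y-linked counts, 14 of the 22 genes were higher without overlap, against 5.81% of all genes, and 7 of them at least 2-fold, against 1.14%. With 6 libraries in each set, none of the 22 genes was separated.

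Promoters of these genes were searched for the elements through which the unfolded protein response acts, since the members moved together only in part. The 300-base promoter windows (250 bases before to 50 after the transcription start, RefSeq, GRCm38.p6) cover 16 of the 17 plasma cell genes and 18 of the 22 ER genes. The ER stress element, CCAAT and CCACG separated by 9 bases on either strand, was in 2 plasma cell genes (Creld2 and Derl3) and 5 ER genes (Calr, Canx, Hsp90b1, Hspa5 and Pdia6), and in 0.119% of the 32851 promoters of the table. The second element, ATTGG and CCACG separated by 1 base, was in Dnajb11 and Herpud1 and in 0.0365% of all promoters. The motif TGACGTGG, part of the XBP1 site, was in Txndc5 and Pou2af1 and in 0.676% of all promoters (0.714% of genes). A gene with several windows was counted when any of them matched. For Txndc5 only the window printed below matched, and those at chr13:38528435-38528734 and chr13:38528775-38529074 had no motif. The last of these covers the start of the gene as annotated (chr13:38500079-38528824, minus strand), whereas the printed window lies inside the gene. Any of the 3 was present in 7 of 20 genes that were higher without overlap and in 4 of 14 that overlapped, beside 0.822% of all promoters and 0.884% of all genes with a window. Derl3 and Txndc5 are shown as genes that separated the sets, Hsp90b1 as one with the first element on each strand and Hspa5 as one that overlapped, with the motif bases in capitals.
Derl3, chr10:75893148-75893447, plus strand: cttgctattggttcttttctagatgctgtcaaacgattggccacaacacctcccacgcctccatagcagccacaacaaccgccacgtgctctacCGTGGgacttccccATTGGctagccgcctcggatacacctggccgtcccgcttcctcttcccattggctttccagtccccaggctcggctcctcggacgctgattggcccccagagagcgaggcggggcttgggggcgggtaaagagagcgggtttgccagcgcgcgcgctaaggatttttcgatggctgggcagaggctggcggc
Txndc5, chr13:38527865-38528164, minus strand: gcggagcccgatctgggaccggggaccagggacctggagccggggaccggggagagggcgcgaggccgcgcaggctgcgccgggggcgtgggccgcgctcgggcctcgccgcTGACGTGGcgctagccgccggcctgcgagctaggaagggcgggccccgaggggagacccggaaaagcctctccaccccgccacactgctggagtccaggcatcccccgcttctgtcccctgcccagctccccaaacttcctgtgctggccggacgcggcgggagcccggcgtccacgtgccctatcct
Hsp90b1, chr10:86705395-86705694, minus strand: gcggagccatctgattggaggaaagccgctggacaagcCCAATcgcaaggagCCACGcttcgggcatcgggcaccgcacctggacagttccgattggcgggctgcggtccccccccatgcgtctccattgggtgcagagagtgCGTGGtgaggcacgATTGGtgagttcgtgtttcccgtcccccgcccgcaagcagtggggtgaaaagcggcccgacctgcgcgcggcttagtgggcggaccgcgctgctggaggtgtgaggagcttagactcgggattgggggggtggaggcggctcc
Hspa5, chr2:34771840-34772139, plus strand: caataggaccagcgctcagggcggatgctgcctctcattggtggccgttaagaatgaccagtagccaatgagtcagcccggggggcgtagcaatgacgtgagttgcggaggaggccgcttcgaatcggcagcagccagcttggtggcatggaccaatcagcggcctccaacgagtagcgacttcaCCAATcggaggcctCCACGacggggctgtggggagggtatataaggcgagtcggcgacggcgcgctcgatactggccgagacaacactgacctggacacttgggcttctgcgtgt
The element was present in promoters of both kinds, and a match to these letters is a description of the sequence only.

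In the following lists, genes beyond the 3 most abundant of each were chosen after their values were seen. Among 12 genes of homing and survival, 2 were at least 2-fold higher without overlap, against 1.69% of all genes. Ccr10, the receptor for CCL28 that attracts IgA plasma cells to mucosa, was 25.2 to 39.7 CPM in the lowest, 45.8 to 80.9 CPM in the middle and 107 to 228 CPM in the highest libraries (log2 2.32, SE 0.29). Tnfrsf13b, the receptor TACI for the survival factors BAFF and APRIL, was 55.7 to 70.8 and 174 to 209 CPM (log2 1.52, SE 0.18). The most abundant members, Mcl1 (log2 0.12, SE 0.29), Itgb7 (log2 0.04, SE 0.27) and Cxcr4 (log2 -1.01, SE 0.50), overlapped, as did Ccr9, the small intestinal homing receptor, with a log2 fold change of -0.22 (SE 0.53). The median of the list was 0.09.

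Genes of B cells before the plasma cell stage had a negative median but overlapped between the sets. Of 15 B cell genes, none was separated in either direction, and the median log2 fold change was -1.51. Cd79a (log2 0.90, SE 0.42), which plasma cells retain in part, and Cd79b (log2 0.15, SE 0.25) were the most abundant, followed by Cd72 (log2 -0.23, SE 0.18). Ms4a1, which encodes CD20, was 4.05 to 119 CPM in the lowest, 6.78 to 134 CPM in the middle and 6.33 to 31.9 CPM in the highest libraries. The range of Ms4a1 in the lowest set thus enclosed that in the highest. With the 12 libraries divided into 6 and 6, the median of the list was -0.07. Between libraries with and without Vil1cre, the median log2 difference of the list was 1.39. In that contrast 7 of the 15 genes had an unadjusted p under 0.05 in edgeR's quasi-likelihood test, and 0 passed after adjustment. More of the lowest than of the highest libraries carried Vil1cre, and its part in the B cell values was not tested. Of 10 germinal center and class switching genes that passed the filter, Tgfbr2, a receptor for the class switch factor TGF-beta, was the 1 that was separated, against 2.11% of all genes, at 271 to 365 CPM in the lowest and 182 to 267 CPM in the highest set (log2 -0.45, SE 0.20), while Tgfb1 (log2 -0.05, SE 0.23) and Basp1 (log2 -0.26, SE 0.33) overlapped.

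T cells and innate lymphoid cells had lower medians in the highest set, with wide overlap. Their lower share of the remaining RNA and a higher share of plasma cells cannot be told apart on a relative scale. All 14 T cell genes had a negative log2 fold change, with a median of -1.31, and none was separated. Cd3e was 186 to 1125 CPM in the lowest and 82.7 to 416 CPM in the highest libraries (log2 -1.64, SE 0.67). Cd8a (log2 -1.47, SE 0.67) and Cd4 (log2 -0.44, SE 0.22), the coreceptors of cytotoxic and helper T cells, overlapped as well. The medians were -1.12 for 12 genes of intraepithelial and cytotoxic lymphocytes, in which Gzma had a log2 fold change of -1.13 (SE 0.62), Gzmb of -1.12 (SE 0.54) and Ccl5 of -1.60 (SE 0.70), -1.65 for 12 genes of group 2 innate lymphoid cells and -1.54 for 8 genes of group 3 innate lymphoid cells. Icos, a costimulatory receptor of T cells and innate lymphoid cells, was the 1 gene of these 4 lists that was at least 2-fold lower without overlap, at 22.1 to 84.3 CPM against 11.3 to 21.96 CPM (log2 -2.05, SE 0.42), against a background of 0.982%. The 2 sets nearly met, at 21.96 and 22.1 CPM. In the 3 other libraries with Y-linked counts Icos was at 15.1, 21.2 and 61.6 CPM, overlapping the highest set. Gata3 (log2 -1.73, SE 0.59) and Rora (log2 -2.56, SE 0.73), transcription factors that group 2 innate lymphoid cells require, and the IL-25 receptor Il17rb (log2 -1.74, SE 1.09) overlapped. The middle mean lay between the means of the 2 sets for 12 of 14 T cell genes but for 2 of 12 group 2 genes. The group 2 list summed to a median of 426 CPM in the lowest, 648 CPM in the middle and 146 CPM in the highest set. Between Hoil1-/- and Hoil1+/+ libraries its median log2 difference was 2.02, with 8 of 12 genes at an unadjusted p under 0.05 in edgeR's quasi-likelihood test. In the group 3 list Tmem176b (log2 0.66, SE 0.41) and Tmem176a (log2 0.69, SE 0.33), which myeloid cells also express, differed in sign from Il17a (log2 -1.61, SE 0.86), and all 3 overlapped.

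Most myeloid lists had positive medians with few separated genes. None of 12 macrophage and monocyte genes was separated, with a median of 0.36, and C1qa ran from 938 to 4982 CPM within the lowest set and from 1683 to 3747 CPM within the highest. Lyz2 (log2 0.41, SE 0.52), C1qa (log2 0.38, SE 0.50) and C1qb (log2 0.12, SE 0.47) were its most abundant members. None of 10 MHC class II genes was separated (median 0.29), with H2-Ab1 at a log2 fold change of 0.38 (SE 0.32), H2-Eb1 at 0.34 (SE 0.36) and Cd74 at 0.29 (SE 0.29). Of 10 dendritic cell genes (median 0.55), 3 were higher without overlap, against 4.06% of all genes: Clec9a at 4.66 to 10.5 and 13.4 to 23.4 CPM (log2 1.02, SE 0.40), Itgax at 279 to 337 and 382 to 569 CPM and Irf8 at 308 to 378 and 411 to 540 CPM. Ccr7, the receptor of migrating dendritic cells and naive lymphocytes, went the other way, with a log2 fold change of -2.13 (SE 0.65) and overlapping values. Of 12 detected genes of eosinophils, mast cells and neutrophils, Prg2 was separated, against the same 4.06%, at 14.9 to 40.7 and 43.6 to 86.6 CPM (log2 1.46, SE 0.38). The mucosal mast cell proteases Mcpt1 (log2 1.25, SE 0.73) and Mcpt2 (log2 1.50, SE 0.69) overlapped, as did Csf3r (log2 0.11, SE 0.54).

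**Figure D5:**
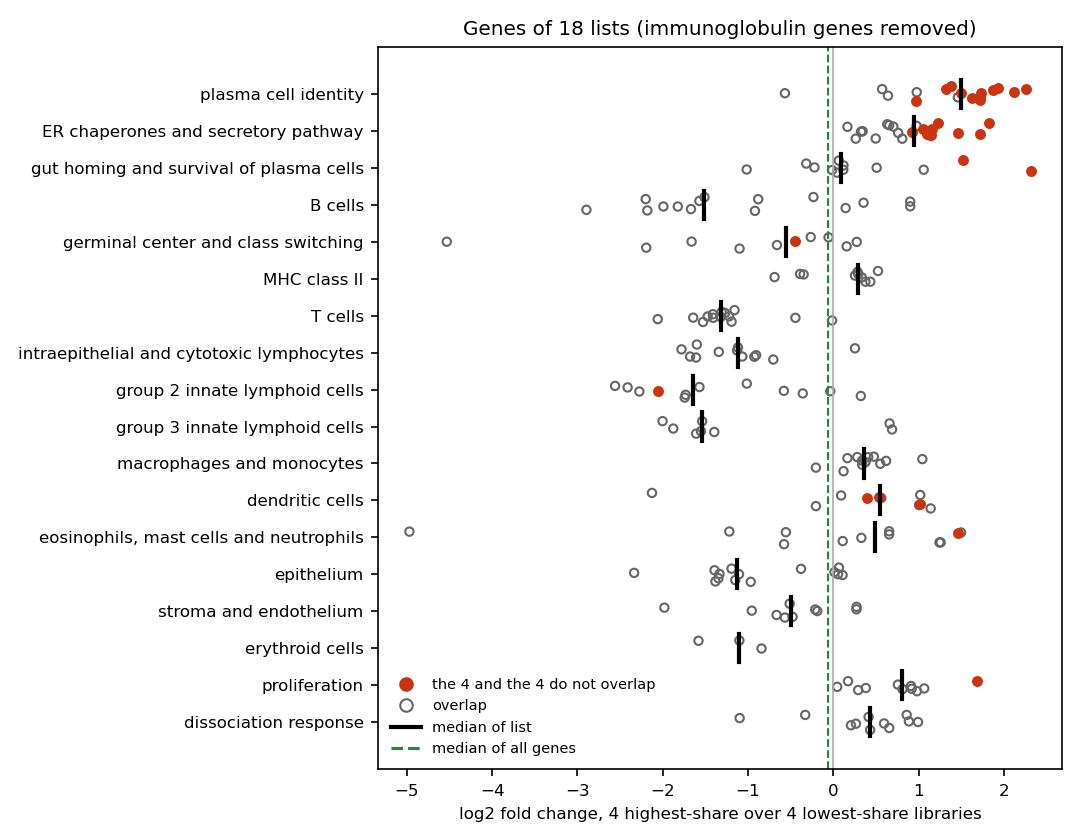
Log2 fold change of the 4 highest-share over the 4 lowest-share libraries (x axis) for the detected genes of 18 lists (rows), with immunoglobulin genes removed. Filled points are genes whose libraries do not overlap between the sets, black bars are list medians, such as 1.50 for plasma cell identity and -1.31 for T cells, and the dashed line is the median of all genes at -0.06.

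Markers of cells outside the sort and of sample handling were measured beside these lists. The 16 epithelial genes summed to 152 to 912 CPM in the lowest and 119 to 703 CPM in the highest set (median log2 fold change -1.13 over the 14 that passed the filter), and the 10 stromal and endothelial genes to 117 to 388 and 153 to 227 CPM (median -0.49), with none separated. Lyz1 (log2 -1.15, SE 0.60), Apoa1 (log2 -1.35, SE 1.13) and Krt8 (log2 -1.33, SE 0.74) led the epithelial list, and Pecam1 (log2 -0.19, SE 0.31), Col3a1 (log2 -0.66, SE 0.70) and Col1a1 (log2 -1.98, SE 0.89) the other. The 5 erythroid genes summed to 19.3 to 57.3 and 0 to 29.6 CPM, mostly from Hbb-bs, a beta globin (log2 -1.58, SE 1.08), beside Hba-a1 (log2 -0.84, SE 1.47) and Hba-a2 (log2 -1.10, SE 1.48). Immediate early genes of the dissociation response varied most in the highest set, where 11 genes summed to 3154 to 29531 CPM against 8869 to 14541 CPM in the lowest, with none separated. Junb (log2 -0.33, SE 0.54), Fos (log2 0.99, SE 0.53) and Egr1 (log2 0.21, SE 0.61) led this list. Proliferation genes had a median of 0.81, and Ccnb1 was 1.46 to 4.62 and 5.29 to 15.6 CPM (log2 1.69, SE 0.61), the 1 gene of 11 that was separated, against 4.06% of all genes. The replication genes Mcm5 (log2 0.81, SE 0.36), Mcm2 (log2 0.29, SE 0.29) and Pcna (log2 0.05, SE 0.28) overlapped. Mitochondrial transcripts made up 3.78% to 8.96% of all counts in the lowest and 1.66% to 4.10% in the highest libraries, with overlap. The 8.96% was that of Hoil1-/-Il4raflox/flox replicate 1, and the next value of the lowest set was 4.53%. All counts here include the immunoglobulin counts, which took a larger part of the highest libraries. Gm42418, a gene that overlaps ribosomal RNA, was 41436 to 50283 CPM in the lowest and 58513 to 106403 CPM in the highest set on the scale without immunoglobulin genes, although as a share of all counts it overlapped, at 3.81% to 4.59% and 3.39% to 6.26%. The part of these in the gene differences was not tested.

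The genes with the largest differences included some outside these lists. Among genes with a mean of at least 10 CPM before TMM scaling, the 12 with the largest positive log2 fold change were Kdm5d, Eif2s3y and Ddx3y of the Y chromosome, Mcpt9, Mgat3, Sgpp2, Pycr1, Ccr10, Txndc5, Hid1, Sdc1 and Myl4. The Y-linked Uty, with no counts in the lowest set and at least 111-fold higher in the highest, had a mean of 9.92 CPM on that scale and 10.1 CPM after TMM scaling, on which it would head this list. Mgat3, a glycosyltransferase that adds bisecting N-acetylglucosamine, was 0 to 9.13 CPM in the lowest and 17.1 to 27.8 CPM in the highest libraries (log2 2.68, SE 1.09). Pycr1, an enzyme of proline synthesis, was 8.53 to 25.0 and 34.1 to 107 CPM (log2 2.33, SE 0.45). Hid1, which acts in Golgi sorting and secretory granule formation, was 6.00 to 27.2 and 78.3 to 106 CPM (log2 2.16, SE 0.42). Mcpt9, a mast cell protease, ranged from 1.35 to 3.58 CPM in the lowest and from 4.42 to 43.8 CPM in the highest set (log2 3.14, SE 0.75). Sgpp2 (log2 2.42, SE 1.00) and Myl4 (log2 2.09, SE 0.35) completed the group.

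In the other direction, the 12 genes with the largest negative log2 fold change were Xist, Ccr8, Rbpms2, Snhg12, Cpm, Crem, Icos, Tnfrsf4, Egln3, Prr7, Ahdc1 and Crocc. Xist was at least 2156-fold lower in the highest set, where a floor of 3 counts per library stands for the absent counts. Ccr8, a chemokine receptor of T helper type 2 and regulatory T cells and of innate lymphoid cells, was 4.33 to 37.8 CPM in the lowest and 0 to 2.77 CPM in the highest libraries (log2 -3.88, SE 1.53). In the middle libraries it was 4.06 to 50.3 CPM, and it was 0 to 50.3 CPM in Hoil1-/- and 0 to 9.28 CPM in Hoil1+/+ libraries. Tnfrsf4, which encodes the costimulatory receptor OX40, was 9.40 to 18.3 and 1.32 to 5.88 CPM (log2 -1.99, SE 0.57). Crem, a cyclic AMP-responsive transcription factor, was 38.7 to 136 and 13.6 to 22.7 CPM (log2 -2.07, SE 0.38), with middle libraries at 21.1 to 100 CPM. The noncoding RNA Snhg12 had a log2 fold change of -2.21 (SE 0.38). A middle library lay above the whole lowest set for Ccr8, Tnfrsf4 (18.4 CPM), Cpm (70.3 CPM, against at most 44.2) and Egln3 (21.9 CPM, against at most 16.8), but not for the others. Ccr8, Icos and Tnfrsf4 are lymphocyte receptors, while the others of these 12 are not restricted to that lineage. Between libraries with and without Vil1cre, all 12 had positive log2 differences, from 0.48 (Ahdc1) to 4.04 (Xist). None of them passed edgeR's quasi-likelihood test after adjustment. More of the lowest than of the highest libraries carried Vil1cre, and its part in these differences was not tested.

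No plasma cell gene passed the test in the genotype contrasts, which the ranking did not use. Over all 12 libraries and 15638 genes, the Hoil1 contrast had 2 genes with an adjusted p under 0.05 in edgeR's quasi-likelihood test (0.0128%). These were Rbck1, which fell by 3.96 on the log2 scale (SE 0.28, adjusted p = 0.000119), and Klrg1, which rose by 2.80 (SE 0.36, adjusted p = 0.0364) in Hoil1-/- libraries. At an unadjusted p under 0.05 there were 631 genes for Hoil1, and 97 genes passed with DESeq2. With outlier libraries left out, the study also names genes such as Nmur1, Il5 and Epas1 as differing by Hoil1 in CD45+ cells. The Il4ra contrast had 0 genes (0.0%), with 817 genes at an unadjusted p under 0.05 and 85 genes by DESeq2. None of the 17 plasma cell genes and none of the 22 ER genes passed in either contrast, and none did with DESeq2. The median log2 change of the plasma cell list was -0.08 for Hoil1 and -0.45 for Il4ra, with 1 and 3 of 17 genes at an unadjusted p under 0.05. The 1 gene for Hoil1 was Prdm1 (log2 -0.95, SE 0.37, adjusted p = 1.00), and those for Il4ra were Fkbp11, Tnfrsf17 and Eaf2. Jchain had a log2 difference of -0.02 (SE 0.37) for Hoil1 and of -0.80 (SE 0.37, adjusted p = 0.904) for Il4ra, and Tnfrsf17 of 0.11 (SE 0.41) and -1.10 (SE 0.41, adjusted p = 0.903).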

How the data were processed

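Live CD45+ and CD45- singlets were sorted from ileum, and poly(A)-selected libraries were sequenced. Deposited values are raw counts, which the authors obtained with featureCounts from cutadapt-trimmed reads that STAR had placed on mm10 (GRCm38), of 39056 genes in 24 libraries; counting options are not given in the sources used here. Symbols came from GENCODE M21 (38872 genes matched).

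For the 12 CD45+ libraries the immunoglobulin share was computed from all counts. The rule does not cover 32 immunoglobulin genes without such symbols, which were left among the other genes. Log2 fold changes and SE of the sets came from edgeR 4.0.16 (R 4.3.3, TMM, genes with a mean of at least 1 CPM before TMM scaling) with no test. Genotype contrasts used its quasi-likelihood test on genes passing its filter (minimum count 10, minimum total 15), two-sided, with Benjamini-Hochberg adjustment. The functions were tested on simulated data. Bounds on folds against absent counts used a floor of 3 counts per library, which covers counting error only.

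Named genes were all plasma cell identity genes, the constant genes, the 5 V genes with the highest mean share, the 12 largest changes each way with a mean of at least 10 CPM before TMM scaling, and the 3 most abundant members of other lists; the text says where others were added. The ranking, members and lists were chosen with earlier results of these data known. Alternatives were RLE size factors, DESeq2 1.42.0, other filters, other set sizes, the 10 libraries of the study's list and leaving out each library; the comparison among libraries with Y-linked counts was added after seeing the data. Values of 1 listed gene are not reported here.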

Additional observations from a re-analysis of the deposited data

Results flagged for a closer look

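In 5 of 32 groups of 4 or 6 libraries, 1 library stood far from the others of its group. The limit used is one that chance passes in about 1 in 20 independent groups. These groups shared libraries, and the highest and lowest sets were cut by rank, so that rate does not apply to them. Hoil1+/+Il4raflox/flox+Vil1cre replicate 1 had an immunoglobulin share of 16.7%, while the other 3 lowest libraries lay between 12.1% and 12.5%. Hoil1+/+Il4raflox/flox+Vil1cre replicate 3 had IgG at 3.05% of heavy chain constant counts, against 0.146% to 1.08% in the other Hoil1+/+ libraries. Hoil1+/+Il4raflox/flox replicate 1 had lambda chains at 4.02% of light chain constant counts, far from the others both in the highest set (0.862% to 1.33%) and among Hoil1+/+ libraries (0.691% to 1.40%). Hoil1+/+Il4raflox/flox+Vil1cre replicate 2 had an effective number of heavy chain V genes of 11.2, against 21.1 to 22.4 in the other lowest libraries.

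Immunoglobulin counts were also present in the 12 CD45- libraries, which no comparison used. Their share ran from 0.00719% in Hoil1+/+Il4raflox/flox+Vil1cre replicate 3 to 1.66% in Hoil1-/-Il4raflox/flox replicate 2, with a median of 0.189%, below all CD45+ libraries.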

How the results depend on the processing

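Results depended on the size and make-up of the sets more than on scaling. With fewer libraries in a set, the condition of no overlap is easier to meet. RLE size factors, immunoglobulin genes kept in the scaling, no filter and DESeq2 fold changes changed no count of the sets by over 1.5 times. Ranking by constant genes chose the same libraries for both sets, so its counts repeat the main ones. The 220 genes higher and 128 lower became 392 and 214 with 3 against 3 libraries, 29 and 14 with 6 against 6, and 419 and 598 with the study's 10 libraries. With a mean of at least 10 CPM, 56 were lower, and against the 3 other libraries with Y-linked counts 289 were. Leaving out 1 library gave 255 to 373 higher, past 1.5 times without Hoil1-/-Il4raflox/flox replicate 1 (373), and 143 to 621 lower, past it without that library (621), Hoil1-/-Il4raflox/flox replicate 3 (583), Hoil1+/+Il4raflox/flox replicate 3 (293), Hoil1-/-Il4raflox/flox+Vil1cre replicate 2 (226), Hoil1+/+Il4raflox/flox+Vil1cre replicate 1 (205) or Hoil1+/+Il4raflox/flox replicate 1 (196). Plasma cell genes at least 2-fold higher without overlap numbered 10 against the 3 other libraries with Y-linked counts, 4 in 6 against 6 and 11 to 13 in the other fits. ER genes numbered 0 in 6 against 6 and 6 to 12 in the other fits, beside 9 in the main one. Of 324 list medians, 6 changed sign, none of plasma cell or ER genes. Without Hoil1+/+Il4raflox/flox replicate 3 the dissociation median was -0.45 and that of eosinophils, mast cells and neutrophils -0.06; against the 3 other libraries with Y-linked counts the medians were 0.15 for epithelium, -0.10 for eosinophils, mast cells and neutrophils and -0.02 for homing; in 6 against 6 that of the germinal center was 0.00392.

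The difference in share by Hoil1 was 0.0436 points in the study's 10 libraries and -4.39 to 3.50 when 1 library was left out, and that by Il4ra -15.4 (adjusted p = 0.0794, exact permutation test) and -12.6 to -6.29, with no adjusted p under 0.05. Genes with an adjusted p under 0.05 numbered 97 for Hoil1 and 85 for Il4ra with DESeq2, 6 and 1 in the study's 10 libraries, and 1 to 5 and 0 to 2 when 1 library was left out; the cause was not tested. No paired analysis was possible because the labels give no replicate numbers, and those used here follow the order of deposit.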
